A study of Mus musculus with 18 samples.

Results

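The T cell receptor gene segments described here are 21 probe sets of an Affymetrix array, of 41345 in the deposited table. They were taken by annotation alone: every gene symbol attached to the probe set had to begin with a receptor segment or receptor locus prefix (Trav, Traj, Trac, Trbv, Trbj, Trbc, Trdv, Trdc, Trgv, Tcra, Tcrb, Tcrd or Tcrg). All 21 are variable (V) segments with 1 symbol each, 8 symbols in all. The alpha locus on chromosome 14 holds 18 of them: 6 probe sets of Trav12-2, 5 of Trav9d-3, 3 of Trav7-4, 3 of Trav14d-3-dv8 and 1 of Trav3-4. The beta locus on chromosome 6 is represented by Trbv13-2, and the gamma locus on chromosome 13 by Trgv5 and Trgv6. Joining and constant segments and the delta variable segments were not analysed here. RefSeq's mouse gene table (GRCm38.p6) lists 130 symbols that begin with Trav, 35 with Trbv and 7 with Trgv, so the probe sets sample few of the segments a T cell can use.

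A T cell receptor chain is encoded by a V segment joined to a joining segment, in some loci with a diversity segment between them, and spliced to a constant region. The recombinase RAG cuts at the segments, and cells that descend from 1 rearranged cell share its V segment unless that locus rearranges again. In normal thymus the beta, gamma and delta loci rearrange while cells lack CD4 and CD8 (the double-negative stages, DN), and the alpha locus rearranges mostly after a beta chain has been made. V segments can also be transcribed before they rearrange, and an array probe does not tell a rearranged transcript from an unrearranged one. Segments of 1 V family are similar in sequence, and the alpha locus carries duplicated blocks of them, so a probe set can read a related copy. Trav14d-3-dv8 can serve in an alpha or a delta chain.

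Cells sorted from thymic lymphomas were compared with healthy blood stem and progenitor cells on 18 arrays, 3 for each of 6 groups. According to the labels, sublethally irradiated mice with an Lck-Cre transgene (Cre driven by the Lck promoter, active in early T cells) received bone marrow infected with a retrovirus for NPM-ALK, a fusion kinase that drives this lymphoma. The lymphomas were taken from moribund mice. Sorting gave 5 fractions: CLP, named after the common lymphoid progenitor, and DN1 to DN4, named after the double-negative stages. The series design names 3 lymphomas. LSK cells, which lack lineage markers and carry SCA1 and KIT, came from bone marrow labelled as healthy control, genotype wildtype, of mice 18 months old. Tissue, genotype and disease therefore differ between every lymphoma fraction and LSK and cannot be told apart.

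The labels contradict one another in part. The description fields name aged NIPA KO or wild type mice, with a dose of 4 Gy for 12 arrays, 1 of them an LSK array, while the genotype fields and titles do not; the titles were followed. Nothing in the labels says that arrays with the same replicate number in different fractions came from the same lymphoma, nor that the 3 arrays of a fraction came from separate animals, so p-values measure the spread between these arrays. Il7r, the gene of the IL7Rα chain used in the sort, had a lower mean in CLP (7.99 ± 0.899) than in DN1 to DN4 (8.51 to 9.75), with LSK at 6.10 ± 0.649 (SD, n = 3 each, log2 scale). On LSK array 1 Xist read 3.55 and the Y-linked Eif2s3y 8.42, and on LSK array 3 they read 10.00 and 4.69. LSK array 2 carried both, at 10.74 and 7.43. The lymphoma groups averaged 3.83 to 4.69 for Xist and 8.95 to 9.20 for Eif2s3y. These 2 genes thus differed within LSK, and whether sex bears on the comparisons with LSK was not tested. CLP arrays were the least alike within a group (Pearson r over all probe sets of 0.933 to 0.945), against 0.969 to 0.987 within each of the other groups.

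Values are log2 RMA signals, a background-corrected and quantile-normalised summary per probe set in which 1 unit is a 2-fold difference. As a gauge of background, 1108 probe sets of olfactory receptors were used, and the gauge is their 95th percentile on each array (5.36 to 5.71). By this gauge 9 of the 21 receptor probe sets were above background on no array, 6 on all 18 arrays and 6 on some. The 9 are Trgv5, Trgv6, Trbv13-2, Trav3-4, the 3 probe sets of Trav14d-3-dv8 and Trav7-4 probe sets 17299991 and 17300155. Differences of those 9 are differences between signals that the gauge does not separate from background. Levels of different probe sets are not comparable with each other, so each was read against its own LSK level.

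Among these V segments, the lymphoma signal was carried by a handful of alpha probe sets. In the mean of all fractions against LSK (3 means over the 5 fraction arrays of a replicate number, against 3 LSK arrays), 8 of 21 probe sets were higher and 2 lower by limma at an adjusted p under 0.05. Over all 25335 probe sets with a gene symbol 13.2% were called higher and 15% lower. At least 2-fold higher were 6 of the 21, against 3.12% of all probe sets, and all 6 are Trav9d-3 (5 probe sets) or Trav7-4 (1 probe set). The median difference was 0.32 over the 21 and 0.06 over all probe sets. No LSK array stood more than 1 log2 unit above the LSK mean for any of the 21. Each LSK array is part of that mean, so this is no contrast with the lymphoma arrays. In sorted bulk samples such as these, fewer cells of a type and less RNA per cell cannot be told apart.

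**Figure D1:**
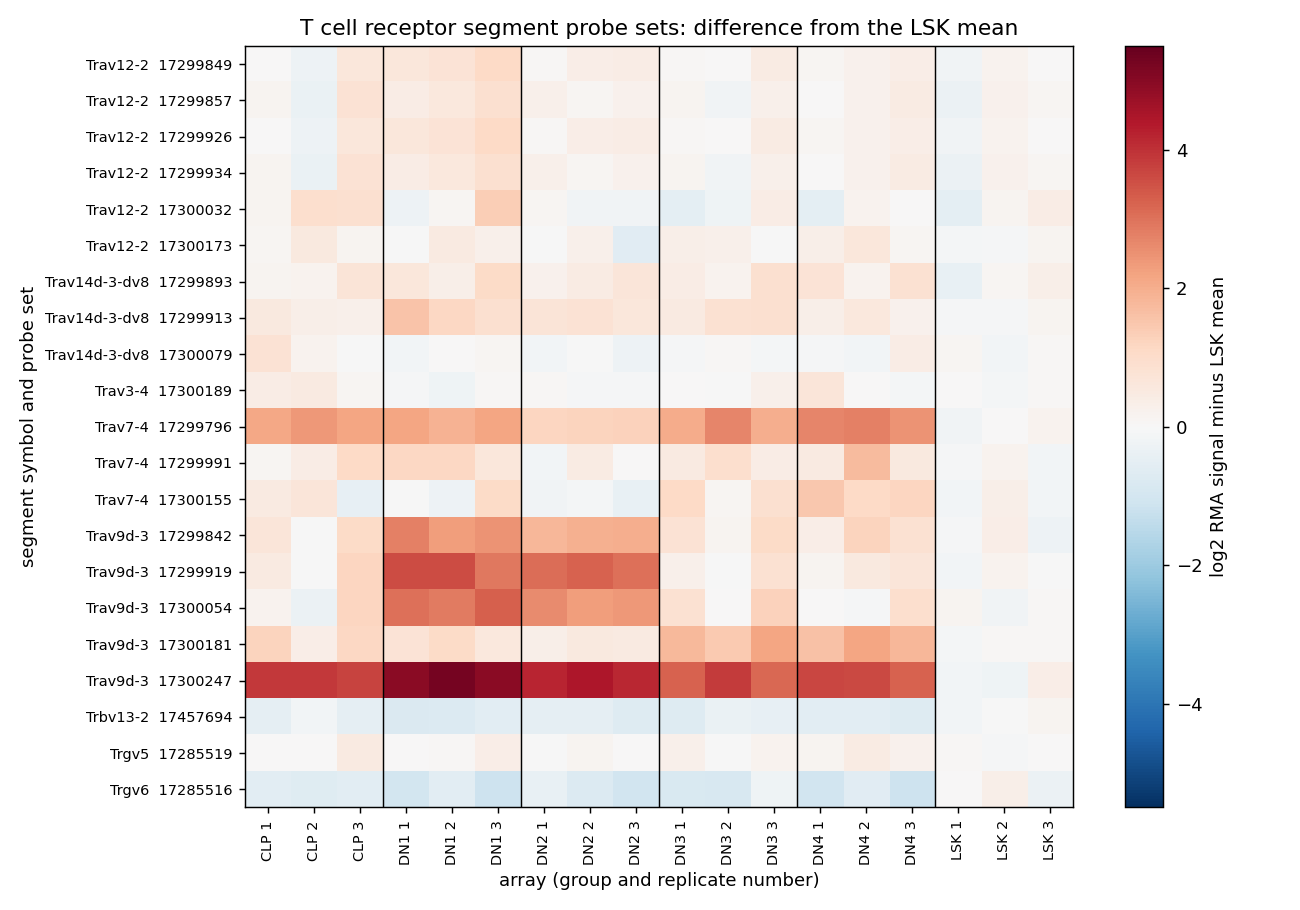
Each row is 1 of the 21 receptor probe sets, each column 1 of 18 arrays, and colour gives the log2 signal minus the mean of the 3 LSK arrays. The row of Trav9d-3 probe set 17300247 is the most raised on all 15 lymphoma arrays, Trav7-4 probe set 17299796 is raised on all 15, and 3 more Trav9d-3 rows are raised in DN1 and DN2.

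The widest difference belonged to Trav9d-3 probe set 17300247. CLP arrays read 11.09, 11.11 and 10.91, DN1 arrays 12.19, 12.48 and 12.17, DN2 arrays 11.41, 11.66 and 11.38, DN3 arrays 10.45, 11.05 and 10.40, and DN4 arrays 10.91, 10.85 and 10.45, against 7.06, 6.99 and 7.60 in LSK. Every lymphoma array lay above every LSK array, with DN1 above all others. The lymphoma mean was 16.2-fold higher than LSK (log2 4.02, SE 0.169, limma adjusted p = 1.96e-07). LSK itself was above the background gauge on its 3 arrays for this probe set.

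Against LSK, fraction by fraction, the same probe set was higher by log2 3.82 (CLP), 5.06 (DN1, 33.45-fold), 4.26 (DN2), 3.41 (DN3) and 3.52 (DN4). The limma adjusted p lay between 2.7e-08 (DN1) and 4.75e-06 (CLP). These 5 comparisons share the LSK arrays. Its difference from LSK ranked first among the 21 on 15 of 15 lymphoma arrays, at 3.18 to 5.27.

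Trav7-4 probe set 17299796 was also raised in every fraction. Its levels were, for CLP arrays 8.43, 8.68 and 8.46, DN1 arrays 8.45, 8.23 and 8.45, DN2 arrays 7.47, 7.52 and 7.55, DN3 arrays 8.33, 8.99 and 8.29, and DN4 arrays 8.97, 9.09 and 8.78, against 6.08, 6.32 and 6.49 in LSK. No lymphoma array overlapped an LSK array, and DN2 was the lowest fraction. The lymphoma mean was 4.23-fold higher than LSK (log2 2.08, SE 0.124, limma adjusted p = 1.85e-06). Single fractions differed from LSK by log2 2.23 (CLP), 2.08 (DN1), 1.22 (DN2), 2.24 (DN3) and 2.65 (DN4), with limma adjusted p of 4.03e-05 or lower in each.

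Of the remaining 4 Trav9d-3 probe sets, 17299919, 17300054 and 17299842 were, like 17300247, highest in DN1 and next in DN2, and 17300181 was not. For probe set 17299919, levels were, on CLP arrays 5.94, 5.41 and 6.63, DN1 arrays 9.02, 9.02 and 8.35, DN2 arrays 8.50, 8.69 and 8.46, DN3 arrays 5.69, 5.38 and 6.28, and DN4 arrays 5.56, 5.95 and 6.08, against 5.26, 5.62 and 5.39 in LSK. DN1 and DN2 arrays stood clear of all others, while CLP, DN3 and DN4 overlapped LSK. Against LSK it was 10.3-fold higher in DN1 (log2 3.37, SE 0.199, limma adjusted p = 7.5e-07) and 8.71-fold higher in DN2 (3.12, SE 0.133, adjusted p = 3.27e-08). The differences in CLP, DN3 and DN4 (0.57, 0.36 and 0.44) did not pass. LSK was above the background gauge on 1 of 3 arrays for this probe set, so these are not exact folds.

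Probe set 17300054 had the same outline, with CLP arrays at 5.98, 5.46 and 6.95, DN1 arrays 8.81, 8.62 and 9.08, DN2 arrays 8.37, 8.06 and 8.18, DN3 arrays 6.61, 5.80 and 7.02, and DN4 arrays 5.81, 5.72 and 6.69, against 5.91, 5.58 and 5.84 in LSK. DN1 and DN2 again did not overlap any other group. It was higher than LSK by log2 3.06 in DN1 and 2.43 in DN2 (limma adjusted p = 3.63e-07 and 2.35e-07), and the values for CLP (0.35), DN3 (0.70) and DN4 (0.30) did not pass.

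For probe set 17299842 the readings were, on CLP arrays 5.80, 5.12 and 6.17, DN1 arrays 7.90, 7.42 and 7.60, DN2 arrays 6.95, 7.10 and 7.14, DN3 arrays 5.93, 5.29 and 6.21, and DN4 arrays 5.48, 6.36 and 5.97, against 5.07, 5.48 and 4.85 in LSK. It was higher by log2 2.50 in DN1, 1.93 in DN2 and 0.80 in DN4 (limma adjusted p = 4.73e-06, 5.17e-06 and 0.021). LSK was above the gauge on 1 of 3 arrays here too, so the sizes are not exact. The DN4 call is lost without DN4 replicate 2 or 3 or LSK replicate 1 or 3 (adjusted p up to 0.0897). For CLP the difference from LSK was 0.56 (95% interval -0.07 to 1.20) and for DN3 0.67 (0.15 to 1.19), with adjusted p = 0.22 and 0.063.

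Probe set 17300181 ran the other way. Its levels were, for CLP arrays 5.18, 4.29 and 5.08, DN1 arrays 4.67, 4.99 and 4.53, DN2 arrays 4.25, 4.47 and 4.44, DN3 arrays 5.72, 5.39 and 6.12, and DN4 arrays 5.54, 6.10 and 5.77, against 3.82, 4.00 and 3.99 in LSK. DN3 and DN4 were the highest, and they alone reached the background gauge, on 2 and 3 of 3 arrays. Differences from LSK were log2 0.91 (CLP), 0.80 (DN1), 0.45 (DN2), 1.80 (DN3) and 1.87 (DN4), each past the test (limma adjusted p = 0.0312, 0.00414, 0.0191, 2.56e-05 and 4.28e-06). LSK lay below background, so these are not exact folds. The call in CLP is lost without CLP array 1 or 3 or any 1 LSK array (limma adjusted p up to 0.121), and that in DN2 without DN2 array 2 or 3 or LSK array 1 (up to 0.0746). With all 18 arrays in 1 model the DN2 call is lost too (limma adjusted p = 0.18). Testing all probe sets also loses the CLP call (0.0809).

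**Figure D2:**
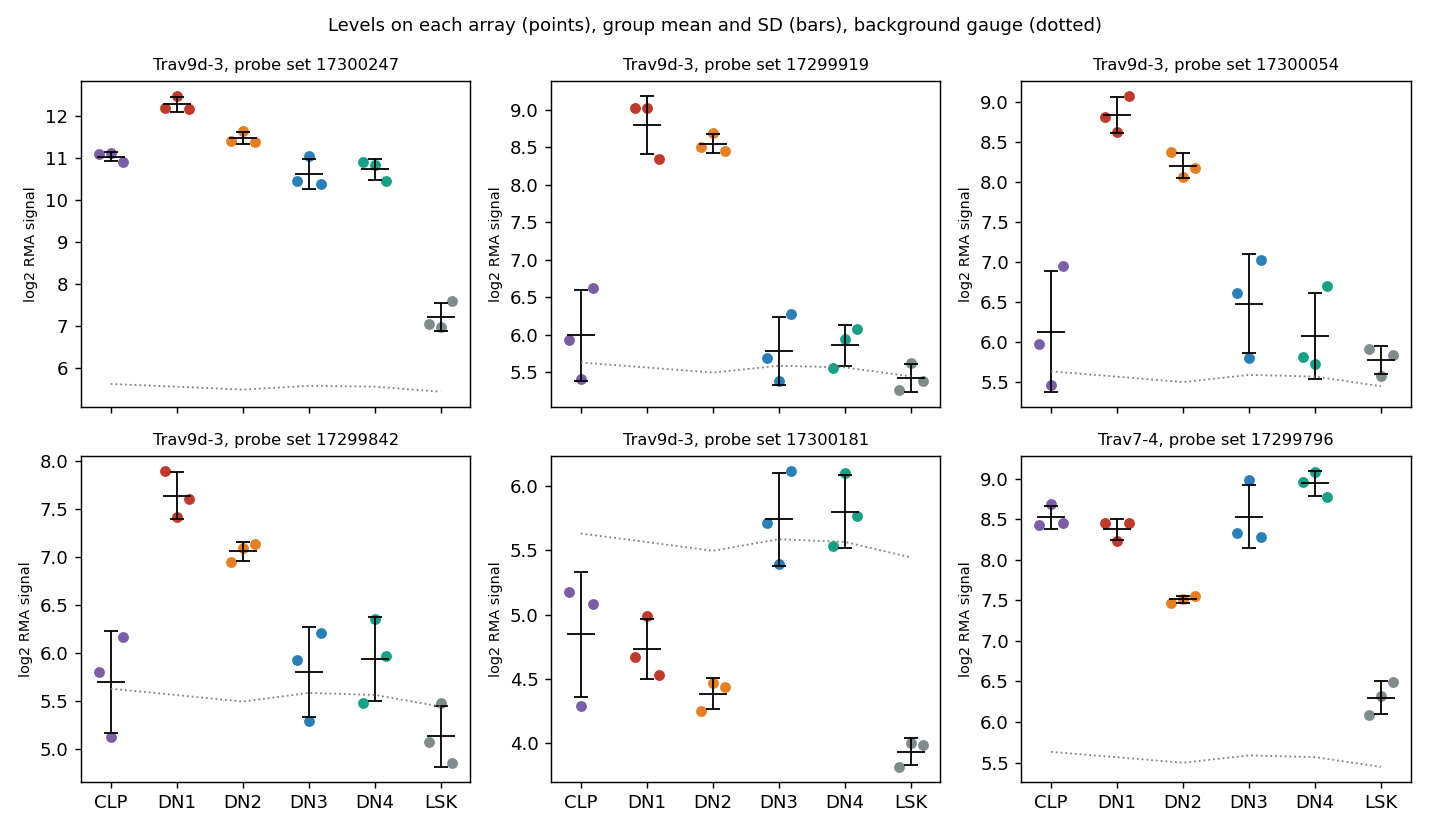
Log2 signal (vertical axis) of 5 Trav9d-3 probe sets and Trav7-4 probe set 17299796 in the 5 lymphoma fractions and LSK; points are arrays, bars the mean and SD of 3 arrays, and the dotted line the mean background gauge of the group. Probe sets 17300247, 17299919, 17300054 and 17299842 are highest in DN1 and DN2, and 17300181 in DN3 and DN4.

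Whether levels of the V segments differ between fractions was tested without LSK, in a model of the 15 lymphoma arrays. This compares mean levels only and cannot show whether a segment is used in each fraction. By limma's F test over the 5 fractions 7 of the 21 probe sets differed, where 7.41% of all probe sets did. These are all 5 Trav9d-3 probe sets (adjusted p = 4.4e-07 for 17299919, 3.5e-05 for 17300247, 4.11e-05 for 17300054, 0.000203 for 17299842 and 0.00105 for 17300181), Trav7-4 probe set 17299796 (0.00025) and Trav14d-3-dv8 probe set 17299913 (0.0192). The spread between the highest and lowest fraction mean was 3.01 log2 units for 17299919, 2.76 for 17300054 and 1.94 for 17299842. It was 1.65 for 17300247, 1.43 for Trav7-4 probe set 17299796 and 1.41 for 17300181. By the comparisons with LSK above, 17300247 and Trav7-4 probe set 17299796 were raised in all 5 fractions, and by the F test at unequal levels.

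The step with most calls was DN3 against DN2, where 2 of 21 probe sets were higher and 4 lower (1.24% and 1.12% of all probe sets). Trav9d-3 probe set 17299919 averaged 5.79 ± 0.456 in DN3 and 8.55 ± 0.122 in DN2 (SD, n = 3 each; log2 difference -2.76, SE 0.279, limma adjusted p = 1.01e-05). Probe sets 17300054 (-1.72), 17299842 (-1.25) and 17300247 (-0.85) were also lower in DN3 (limma adjusted p = 0.00888, 0.0159 and 0.0125). Each of these 3 calls is lost without certain single arrays. Probe set 17300054 had an adjusted p of 0.0574 without DN3 replicate 2 and 0.0521 without DN2 replicate 1. Probe set 17299842 had 0.0992 without DN3 replicate 2, and 0.0713 and 0.0749 without DN2 replicate 2 and 3. Probe set 17300247 had 0.0904 and 0.0887 without DN3 replicate 1 and 3, and 0.0901 without DN2 replicate 2. The calls of 17299919, 17300181 and Trav7-4 probe set 17299796 held under all 13 alternatives. Higher in DN3 were 17300181 (1.35, adjusted p = 0.00226) and Trav7-4 probe set 17299796 (1.02, adjusted p = 0.00155). Probe sets that share the symbol Trav9d-3 thus moved in opposite directions in this step.

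In DN2 against DN1, 2 of 21 were lower and 0 higher (0.592% and 0.628% of all probe sets). At an unadjusted p under 0.05 by limma were 7 of the 21 and 7.57% of all probe sets. The 2 lower ones are Trav7-4 probe set 17299796 (log2 -0.87, adjusted p = 0.0132) and Trav9d-3 probe set 17300247 (-0.80, adjusted p = 0.034). Leaving out single arrays of DN1 or DN2 cut this count to 0 or 1. For 17299919 the difference was -0.25 with a 95% interval of -0.84 to 0.34.

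In DN4 against DN3, limma called 0 of 21 (0.00395% of all probe sets), with 2 of the 21 at an unadjusted p under 0.05, as were 3.02% of all probe sets. The 95% interval of the difference was -0.27 to 0.48 for 17300247, -0.52 to 0.67 for 17299919, -0.43 to 0.55 for 17300181 and 0.05 to 0.76 for Trav7-4 probe set 17299796. A 2-fold difference lies outside each of these intervals. It lies inside that of Trav9d-3 probe set 17300054 (-1.13 to 0.33). The same holds for Trav7-4 probe set 17300155 (-0.13 to 1.28), which is below background.

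CLP was set against the mean of DN1 to DN4, and 3 of 21 were lower and 0 higher (2.7% and 1.5% of all probe sets). The 3 are Trav9d-3 probe sets 17300054 (log2 -1.27), 17299919 (-1.26) and 17299842 (-0.91), with limma adjusted p = 0.0161, 0.00478 and 0.0253. Without CLP replicate 2 only 17299919 is called (17300054 then has 0.108 and 17299842 has 0.161). Within that mean, CLP lay below DN1 and DN2 but not below DN3 and DN4 for 17299919, at 5.99 in CLP and 8.80, 8.55, 5.79 and 5.86 in DN1 to DN4. For 17300054 CLP was at 6.13, against 8.84, 8.20, 6.48 and 6.08, and for 17299842 at 5.70, against 7.64, 7.06, 5.81 and 5.94. CLP against DN3 or DN4 alone was not tested. CLP arrays were uneven for them: 17300054 read 6.95 on CLP array 3 and 5.46 on CLP array 2.

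**Figure D3:**
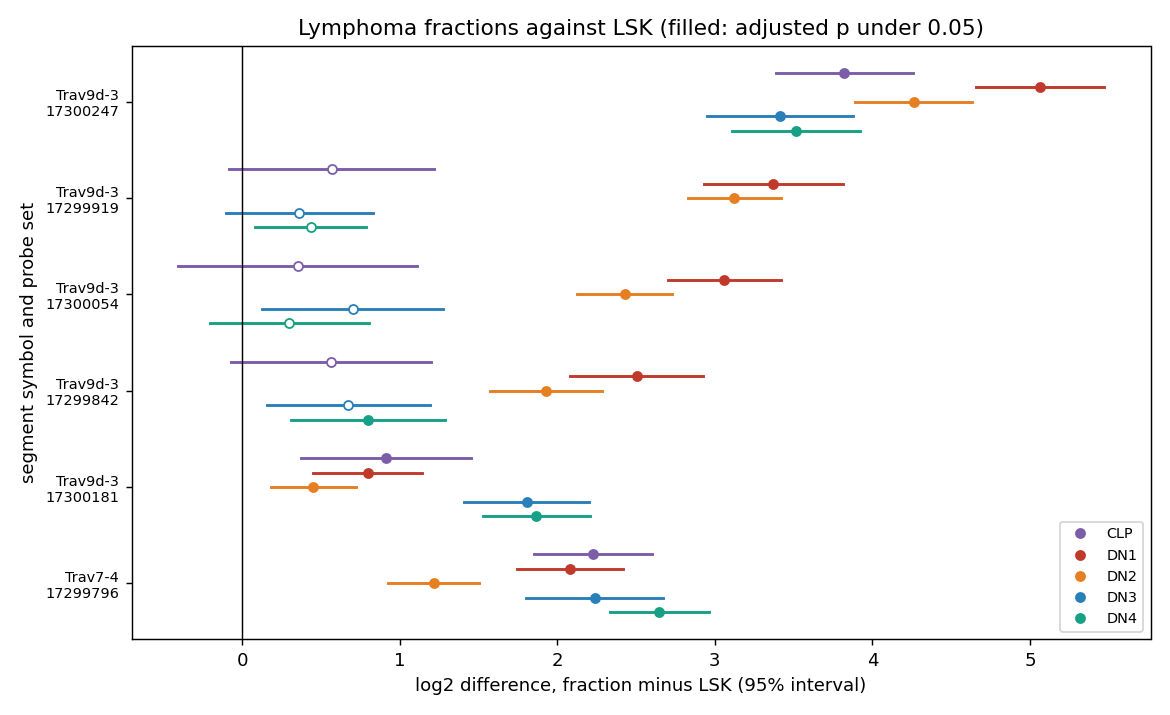
Log2 difference of each lymphoma fraction from LSK (horizontal axis, fraction minus LSK) for the same 6 probe sets; points are limma estimates, lines 95% intervals, and open points did not pass an adjusted p of 0.05. Intervals of DN1 and DN2 stand apart from those of CLP, DN3 and DN4 for 17299919, 17300054 and 17299842.

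Replicate numbers were tested in the same 15 arrays, with the fraction as a covariate, since clones of different lymphomas could use different V segments. Limma's F test called 0 of the 21 (0.0316% of all probe sets). At an unadjusted p under 0.05 were 9 of the 21, against 13.7% of all probe sets. The 9 include Trav12-2 probe sets with identical values in pairs, 17299849 with 17299926 and 17299857 with 17299934. They also include 17300247 (F test, unadjusted p = 0.0125), with means of 11.21, 11.43 and 11.06 for numbers 1, 2 and 3. The smallest limma adjusted p belonged to Trav14d-3-dv8 probe set 17299893 (0.131), below background, and Trav9d-3 probe set 17300054 (0.142). Probe set 17300054 averaged 7.12, 6.74 and 7.58 over the 5 fraction arrays numbered 1, 2 and 3. On all 15 lymphoma arrays 17300247 ranked first in difference from LSK, and a Trav7-4 or Trav9d-3 probe set ranked second. Whether the numbers stand for different lymphomas is not given in the labels, so this does not show how many clones the lymphomas held.

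Per array, the number of the 21 that stood more than 1 log2 unit above the LSK mean was 3, 2 and 7 for CLP. DN1 arrays had 7, 8 and 10, and each DN2 array 5. DN3 arrays had 4, 3 and 5, and DN4 arrays 4, 6 and 4. LSK arrays had 0, but they make up that mean, so this is no contrast. CLP array 3 reached the lowest DN1 array. Trav12-2 probe sets 17299849 and 17299926, which hold identical values, are both counted on DN1 array 3. The count was not tested, and the share of all probe sets above this mark is not given here.

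In DN1 against LSK 12 of 21 probe sets were called higher and 2 lower (7.54% and 11.6% of all probe sets). Beside the segments above, 4 Trav12-2 probe sets passed in DN1, but they are 2 measurements: 17299849 and 17299926 hold identical values on all 18 arrays, as do 17299857 and 17299934, so the 21 probe sets give 19 distinct profiles. The first pair was higher by log2 0.82 (adjusted p = 0.00528) and the second by 0.63 (0.0371). The second pair misses the threshold under 6 of 13 alternatives, among them without DN1 replicate 2 or 3 or LSK replicate 1 or 3 (adjusted p up to 0.15). CLP had 3 higher and 0 lower (6.36% and 10.3%), DN2 had 7 and 2 (11.5% and 13.3%), DN3 had 5 and 2 (11.3% and 12.4%), and DN4 had 6 and 2 (11.7% and 14.1%). Without LSK array 2, the one with both Xist and Eif2s3y, 11 of the 21 were called in the lymphoma mean (9 higher, 2 lower). The fractions gave 2 higher and 0 lower (CLP), 12 and 2 (DN1), 7 and 1 (DN2), 6 and 0 (DN3) and 6 and 2 (DN4). In DN3 the lower calls of Trgv6 and Trbv13-2 were lost (limma adjusted p = 0.162 and 0.0619). Shares of all probe sets in these fits are not given here, so the counts have no such reference.

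The other Trav12-2 probe sets, 17300032 and 17300173, were above background on all 18 arrays and passed in no comparison. Means of the first were 7.91 ± 0.416 (CLP), 7.66 ± 0.836 (DN1), 7.17 ± 0.160 (DN2), 7.13 ± 0.478 (DN3) and 7.16 ± 0.385 (DN4), against 7.26 ± 0.490 in LSK (SD, n = 3 each). Each fraction overlapped LSK for both probe sets.

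Trav14d-3-dv8 was near the floor. Probe set 17299913 averaged 4.39 ± 0.343 in DN1 and 3.57 to 3.93 in the other fractions, against 3.19 ± 0.115 in LSK, all below background, and the lymphoma mean differed from LSK by log2 0.68 (limma adjusted p = 0.000907). Its other probe sets, 17299893 and 17300079, passed in no comparison. Trav7-4 probe set 17299991 was higher in the lymphoma mean by 0.63 (adjusted p = 0.0127), and 17300155 in DN4 alone of the 5 LSK comparisons by 1.25 (adjusted p = 0.000175), both below background. Trav3-4 (fraction means 2.34 to 2.76, LSK mean 2.42) passed in no comparison.

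Beta and gamma V segments gave no signal above background in any group. Trbv13-2, a beta V segment, averaged 3.12 to 3.44 in the fractions and 3.82 ± 0.143 in LSK (lymphoma mean against LSK -0.56, limma adjusted p = 0.00353). Trgv6, which is used by gamma-delta T cells of the fetal thymus, averaged 3.79 to 4.13 in the fractions and 4.73 ± 0.324 in LSK (-0.76, adjusted p = 0.0047). Trgv5 averaged 3.78 to 4.01 in the fractions and 3.73 ± 0.0747 in LSK and passed in no comparison. With 1 beta and 2 gamma segments measured, which beta or gamma segment the lymphoma cells used was not analysed here.

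A probe set kept out by the rule, because it carries Trav3n-3 together with A430107P09Rik, was looked at after its values were seen. Probe set 17299944 differed from LSK by log2 1.95 (CLP), 4.13 (DN1), 2.74 (DN2), 0.79 (DN3) and 0.85 (DN4), with limma adjusted p from 3.38e-08 (DN1) to 0.00933 (CLP). As for 4 of the 5 Trav9d-3 probe sets, DN1 and DN2 were the highest, and the fractions differed (F test, limma adjusted p = 3.74e-06).

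Genes of the receptor machinery were read from gene lists beside the segments. Over all probe sets with a gene symbol, 13.2% were called higher and 15% lower in the lymphoma mean than in LSK. Of 4 measured CD3 and pre-TCR genes all 4 were higher in the lymphoma mean than in LSK, with a median of 6.98, among them Cd3e, a signalling chain of the receptor complex (log2 7.50, limma adjusted p = 6.36e-09). Of 10 measured recombination genes 6 were higher and 1 lower: Dntt, the polymerase that adds bases at the joints, rose by 1.61 (adjusted p = 0.00027), the end-joining ligase gene Lig4 by 1.74 (5.31e-06) and Xrcc6, which encodes a DNA end-binding protein, by 2.17 (5.87e-06), while the polymerase gene Poll fell by 1.04 (6.96e-05). Ptcra, the surrogate alpha chain that pairs with beta before the alpha locus rearranges, had means of 8.08 (CLP), 5.84 (DN1), 7.04 (DN2), 8.97 (DN3) and 9.02 (DN4), against 5.68 (LSK). It was higher in DN3 than in DN2 (1.93, adjusted p = 1.4e-06), where 4 Trav9d-3 probe sets and Dntt (-1.09, adjusted p = 0.000155) were lower. Rag2, a recombinase subunit, was higher in DN3 than in DN2 (1.40, adjusted p = 0.00228), with means below background in both.

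Of 9 measured regulators linked to the enhancers of the alpha and beta loci, 5 were higher and 2 lower in the lymphoma mean. The shares of all probe sets were 13.2% and 15%. Bcl11b, a factor of T lineage commitment, rose by 4.73 (adjusted p = 3.56e-08), Lef1 by 3.84 (1.98e-05) and Ets1 by 2.36 (1.99e-06), while Runx3 fell by 1.14 (1.12e-05). All 7 measured T lineage genes and all 3 coreceptor genes were higher, and the 4 measured stem and progenitor markers were lower (limma adjusted p under 0.05 each). The T lineage list repeats Cd3d, Cd3e and Cd3g of the CD3 list and Bcl11b of the regulators, so these lists are not independent. Cd8a was above the background gauge on 0 CLP, 0 DN1 and 0 LSK arrays, and on 1 array each of DN2, DN3 and DN4. Cd4 was above it on 1 CLP array and 0 LSK arrays. In CLP alone against LSK 1 of 3 coreceptor genes was called.

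Markers of other cells were read for the fractions in which V signals were high. Of 5 macrophage markers 4 were lower and 1 higher in DN1 than in LSK (11.6% and 7.54% of all probe sets). The list's mean level lay at 5.51 to 5.76 on DN1 arrays and 5.33 to 5.53 on DN2 arrays. It lay at 4.77 to 5.18 on the arrays of the other fractions, against 6.49 to 6.63 on LSK arrays. The marker called higher, Mrc1, the mannose receptor, averaged 7.87 in DN1 and 7.47 in DN2, against 5.08 to 5.33 in the other fractions and 5.05 in LSK. It was lower in DN3 than in DN2 (-2.37, adjusted p = 3.66e-06), as 4 Trav9d-3 probe sets were, and its part in their signal was not tested. Of the other macrophage markers, Csf1r was above the background gauge on 2 of 3 DN1 arrays, and Adgre1, Cd14 and Lyz2 on none. Of 5 B cell markers Pax5 was above it on 3 of 3 DN1 arrays, Cd79a and Cd79b on 1 each, and Ebf1 and Ms4a1 on none. Of 5 NK markers Tbx21 was above it on 3 of 3 arrays of every group, LSK included, and Eomes, Klrb1c, Klrd1 and Ncr1 on no DN1 array.

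Of 5 measured gamma-delta T markers 3 were higher and 1 lower in the lymphoma mean than in LSK (13.2% and 15% of all probe sets). Cd163l1, a scavenger receptor of gamma-delta T cells, was higher by 4.63 (adjusted p = 1.31e-07) and Il17rb by 4.31 (1.59e-08), at 9.24 to 9.82 and 9.56 to 10.10 in the 5 fractions, against 4.90 and 5.45 in LSK. Neither Cd163l1 nor Il17rb passed the F test over fractions (adjusted p = 0.352 and 0.0795). Of the rest of the list, Sox13 was higher in the lymphoma mean by 0.82 (limma adjusted p = 0.00123) and Maf lower (-0.46, 0.0193). Blk did not pass (-0.37, 0.379). Maf was above the background gauge on no lymphoma array and on 2 LSK arrays.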

How the data were processed

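RNA of 18 sorted samples was measured on Affymetrix arrays after WT Pico amplification. Deposited values are log2 signals made with RMA in the oligo package, per the submitters' processing notes; tool versions and the genome build are not given in the sources used here. The values entered each fit unchanged. Symbols came from the platform annotation (23521 probe sets with 1 symbol, 1814 with several, 16010 with none), and chromosomes from RefSeq, which matched all 21 members; no coordinates are given.

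Each comparison was fitted with limma 3.58.1 (R 4.3.3; lmFit, eBayes, two-sided, Benjamini-Hochberg over 25335 probe sets with a symbol, threshold 0.05). The number of arrays limits the precision. The code was tested on simulated data. Members, lists and tests were chosen with earlier results of these data known. Named are the called members with the largest differences and smallest p, the top member of each array, and up to 4 genes per list; values of other genes named were seen first. A gene in a list is represented by its brightest single-symbol probe set. Alternatives were a filter on dim probe sets, quantile normalization, other sets of probe sets, a trended robust prior, a replicate block, 1 model for all arrays and the omission of single arrays.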

Additional observations from a re-analysis of the deposited data

Results flagged for a closer look

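The fractions' differences from LSK were unequal for 7 of the 21 V probe sets, as the F test over the 5 fractions shows (limma adjusted p). They are Trav9d-3 probe sets 17299919 (4.4e-07), 17300247 (3.5e-05), 17300054 (4.11e-05), 17299842 (0.000203) and 17300181 (0.00105), Trav7-4 probe set 17299796 (0.00025) and Trav14d-3-dv8 probe set 17299913 (0.0192), the last below background in every group. Among the Trav9d-3 probe sets, 17300247, 17299919, 17300054 and 17299842 are highest in DN1 and DN2, and 17300181 in DN3 and DN4.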

How the results depend on the processing

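No difference of a called member reversed under any alternative, and 734 of 807 such values stayed past the threshold. A filter that kept probe sets over the median of 3 or more arrays left 9 to 11 of the 21 members in the comparisons whose count it moved by over 1.5 times: lymphoma against LSK gave 5 members called (10 without the filter), DN1 9 (14), DN2 5 (9), DN3 2 (7) and DN4 2 (8), because fewer members were tested. Testing all 41345 probe sets gave 4 for DN3 against LSK (7) and 1 for DN2 against DN1 (2). With all 18 arrays in 1 model CLP against LSK gave 5 (3). The cause of these other shifts was not tested. Leaving out 1 array gave 0 to 1 for DN2 against DN1 (2), and without CLP replicate 2 CLP against DN1 to DN4 gave 1 (3). Deviations from group means correlated at -0.20 to 0.35 between same-numbered arrays of different fractions (median 0.12, 22 of 30 pairs over 0.1) and at a median of -0.08 between differently numbered ones (6 of 60 over 0.1). With LSK the same-numbered pairs lay at -0.17 to 0.13. Although 22 of 30 same-numbered pairs passed 0.1, the fits of single fractions against LSK and the comparisons among fractions carry no block. Any pairing by number is therefore not modelled in them. The lymphoma mean instead averages the 5 arrays of a number and treats it as 1 unit (10 members called, and 10 with all 18 arrays in 1 model). With the replicate block the F test over fractions called 9 members (7), lymphoma against LSK 11 (10), CLP 4 (3) and DN3 7 (7), and no count of members moved by over 1.5 times. The DN3 count holds different members: Trgv6 is lost (adjusted p = 0.0842), with 6 higher and 1 lower in place of 5 and 2. Without LSK array 2 lymphoma against LSK called 11 (10). Counting identical probe sets once moved no count of members by over 1.5 times. A call for a probe set below the background gauge is limited by signal.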
